A study of Homo sapiens with 2 samples.

Results

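The 10 genes described here encode enzymes that build, desaturate and elongate fatty acids (FASN, ACACA, ACLY, SCD, SCD5, FADS2, FADS3, ELOVL6 and ELOVL7) together with SREBF1, a transcription factor of the pathway. They were chosen by gene symbol in the platform annotation, 1 probe set each, and make up 10 of the 17687 genes named on the array. Total RNA of MKN1, an established human gastric cancer line, was hybridised to Affymetrix arrays. One array holds MKN1 cells that overexpress RHOA wild-type and the other MKN1 cells that overexpress RHOA Y42C, in both cases from the pBABE-puro vector after puromycin selection. RHOA is a small GTPase that controls the actin cytoskeleton, and Y42C names a tyrosine-to-cysteine change in it. Both lines were grown in RPMI with serum, and the labels do not say whether a line is 1 clone or a pool. Unmodified MKN1 and cells with an empty vector were not analysed here, so the values compare the lines with each other and not with unmodified MKN1. Each line has 1 array, so no difference below has a replicate, an error between samples or a test.

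Cells make fatty acids in the cytosol from citrate that leaves the mitochondria. ACLY splits citrate into acetyl-CoA, ACACA carboxylates acetyl-CoA to malonyl-CoA, and FASN joins malonyl units into palmitate, with NADPH as the reductant. Elongases then lengthen the chain and desaturases put in double bonds, while SREBF1 encodes SREBP-1, a membrane-bound factor that is cut free to switch on these genes.

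The signal is the value deposited for each probe set, taken as log2 from its range (2.23 to 18.16); the log base is not given in the sources used here, and every fold assumes base 2. An expression minimum was set on each array at the 95th percentile of 349 olfactory receptor genes, most of which are silent outside the nose, 5.17 (wild-type) and 5.14 (Y42C). A gene was kept if either array reached its minimum, which left 11802 genes, and all 10 genes of the set lay above it on both arrays. The arrays had medians of 6.42 (wild-type) and 6.36 (Y42C) over all probe sets, and RHOA itself read 16.47 and 16.30, which does not check the labels since both lines carry a RHOA vector. Of 10 epithelial markers 8 lay above the minimum, with KRT8 at 17.96 and 17.94 and EPCAM at 13.30 and 13.53. CLDN7, a tight junction gene, was 2.46-fold lower in the Y42C array (10.61 and 9.31), and CDH1, the E-cadherin gene, lay below it on both arrays (3.92 and 3.86). Of 16 stomach markers 6 were above it, among them GATA6 (9.15 and 9.25) and ANXA10 (3.78 and 5.55, at least 1.30-fold higher), while MUC5AC (3.20 and 3.25) and TFF1 (4.45 and 4.07) were below, so the defining markers of differentiated gastric mucosa were mostly at background. Among markers of other cell types 2 of 7 for adipocytes, 4 of 7 for hepatocytes, 1 of 5 for fibroblasts and 4 of 5 for leukocytes lay above the minimum. The adipocyte genes PLIN1 (3.14 and 2.96) and FABP4 (2.91 and 3.34) were below it. ALB of hepatocytes lay near it (4.85 and 5.41), and PTPRC of leukocytes did too (4.61 and 5.39). Above it on both arrays were PNPLA2 (8.35 and 8.51) and LIPE (5.61 and 5.94) of adipocytes and APOA1 of hepatocytes (5.75 and 5.78). So were COL1A1 of fibroblasts (6.05 and 5.84) and CSF1R (6.14 and 6.42) and CD14 of leukocytes. The 5 leukocyte markers averaged 5.29 and 5.39 on the log2 scale, and CD14 had the largest difference among them (7.45 and 5.67). The part of these markers in the differences below was not tested.

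The stretches before the start sites are shown here for 4 genes that were higher in the Y42C array (SCD, ACLY, FADS3 and SREBF1) and 2 that were lower (SCD5 and ELOVL6). SCD and SCD5 encode the same kind of enzyme and differed in opposite directions, and the others were picked, with their matches known, to show stretches with and without the box in capitals. Each line gives the 250 bases before the annotated start site, 5′ to 3′ on the gene's strand, from RefSeq on GRCh38.p14; ACLY has several listed start sites, and the first is shown. Capitals mark CCAAT, the box bound by NF-Y, or its complement ATTGG; NF-Y is known to act beside SREBP at lipid genes.
SCD (chr10:100346983-100347232, plus strand): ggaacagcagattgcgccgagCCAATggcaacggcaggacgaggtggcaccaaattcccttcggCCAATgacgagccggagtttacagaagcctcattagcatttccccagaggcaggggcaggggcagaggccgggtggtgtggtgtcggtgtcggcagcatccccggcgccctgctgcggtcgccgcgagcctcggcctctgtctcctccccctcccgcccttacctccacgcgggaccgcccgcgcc
ACLY (chr17:41919023-41919272, minus strand): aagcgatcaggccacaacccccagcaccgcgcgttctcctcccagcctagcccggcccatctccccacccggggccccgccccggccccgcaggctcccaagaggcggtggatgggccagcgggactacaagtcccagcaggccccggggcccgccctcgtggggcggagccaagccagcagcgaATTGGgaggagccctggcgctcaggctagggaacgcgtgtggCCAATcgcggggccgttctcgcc
FADS3 (chr11:61891546-61891795, minus strand): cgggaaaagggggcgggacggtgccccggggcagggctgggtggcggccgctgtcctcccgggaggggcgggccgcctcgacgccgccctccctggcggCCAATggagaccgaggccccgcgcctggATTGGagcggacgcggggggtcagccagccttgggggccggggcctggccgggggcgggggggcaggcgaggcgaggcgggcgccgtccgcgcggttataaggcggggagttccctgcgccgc
SREBF1 (chr17:17836987-17837236, minus strand): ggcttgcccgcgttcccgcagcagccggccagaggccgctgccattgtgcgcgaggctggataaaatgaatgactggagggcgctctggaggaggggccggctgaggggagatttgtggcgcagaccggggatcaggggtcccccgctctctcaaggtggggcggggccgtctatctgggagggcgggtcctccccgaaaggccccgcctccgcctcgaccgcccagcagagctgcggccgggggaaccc
SCD5 (chr4:82798797-82799046, minus strand): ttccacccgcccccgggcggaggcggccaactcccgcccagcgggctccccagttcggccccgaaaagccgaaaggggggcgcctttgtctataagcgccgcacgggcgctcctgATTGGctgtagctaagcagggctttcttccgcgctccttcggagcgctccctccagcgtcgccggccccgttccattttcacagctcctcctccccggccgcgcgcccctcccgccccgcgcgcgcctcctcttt
ELOVL6 (chr4:110198616-110198865, minus strand): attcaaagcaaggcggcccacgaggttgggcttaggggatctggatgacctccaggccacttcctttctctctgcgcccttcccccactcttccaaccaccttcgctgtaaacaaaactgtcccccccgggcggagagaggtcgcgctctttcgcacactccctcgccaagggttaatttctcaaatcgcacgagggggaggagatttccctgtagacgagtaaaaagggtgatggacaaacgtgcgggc
SCD, ACLY and FADS3 each hold 2 such boxes, SCD5 holds 1, and SREBF1 and ELOVL6 hold 0. These stretches were picked with their matches known, so they cannot show whether the box goes with the direction of a gene, which was not tested. The first listed windows of the higher genes FADS2 and ACACA hold 0, and later windows of both hold the box.

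Of the 10 genes, 7 were higher in the Y42C array and 3 lower, against 45.2% higher and 54.2% lower among all genes above the minimum. The 6 genes FASN, ACACA, FADS2, SCD, FADS3 and SREBF1 were at least 2-fold higher, against 7.46% of all genes above the minimum, and ACLY was higher by less than 2-fold. The other 3 (ELOVL6, SCD5 and ELOVL7) were at least 2-fold lower, against 9.80% of all genes. These shares of all genes depend on the scaling: centred arrays gave 1030 genes higher and 1031 lower, and removal of a trend on level 1056 higher and 963 lower, in place of 881 and 1157. The set was put together with earlier results of these arrays known, so the counts describe it and do not show that it stands apart. The differences ran from -1.97 for ELOVL6 to 2.82 for FASN on the log2 scale. Their median size without regard to sign was 1.28, and that of all genes above the minimum was 0.48.

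**Figure D1:**
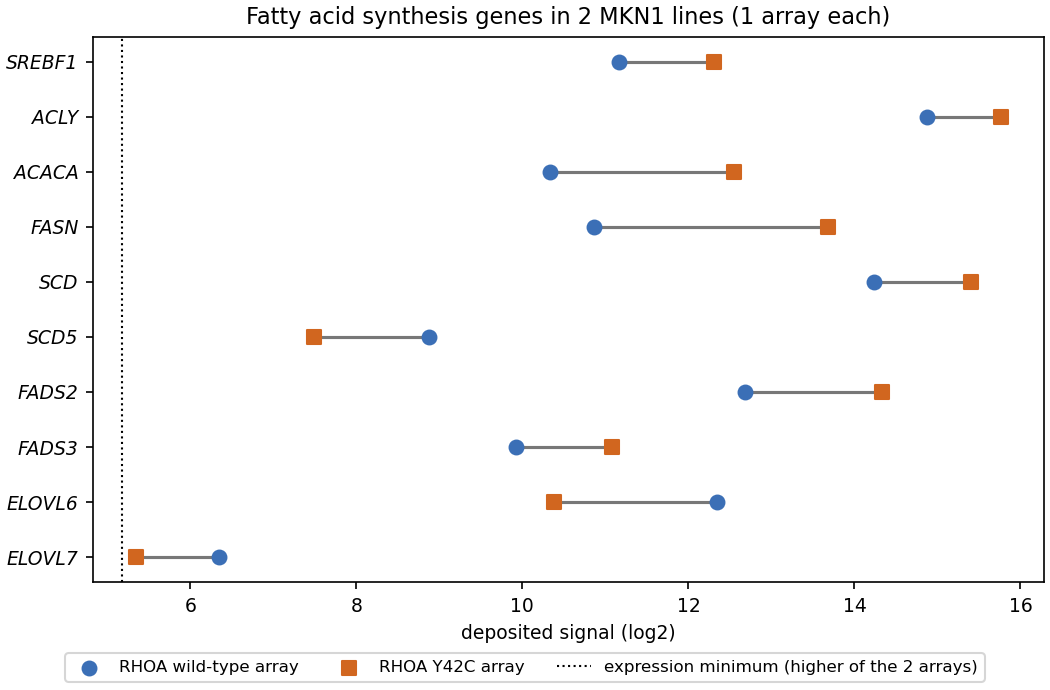
Deposited log2 signal (x axis) of SREBF1 and the 9 enzymes (y axis, in order of the pathway) on the RHOA wild-type array (blue circles) and the RHOA Y42C array (orange squares), 1 array each, with no error bars because there are no replicates. Signal is to be compared within a gene: the orange square lies to the right for 7 genes and to the left for SCD5, ELOVL6 and ELOVL7, and ELOVL7 lies closest to the expression minimum (dotted line).

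SREBF1 read 11.16 on the wild-type and 12.31 on the Y42C array. It was 2.22-fold higher in the Y42C line, and 5.62% of the genes above the minimum had a difference as high or higher. In the same of 20 bins of mean signal, 44 of 590 genes, SREBF1 included, had a difference as high or higher. In bulk RNA, a change in the share of cells with a transcript and a change in its amount per cell cannot be told apart, here and for every gene below. The probe set gives 1 value for SREBF1, so the transcripts for SREBP-1a and SREBP-1c cannot be told apart, and the array does not measure cleavage of the protein.

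The 3 cytosolic steps from citrate to palmitate were all higher in the Y42C array. ACLY, which makes the acetyl-CoA, read 14.88 (wild-type) and 15.76 (Y42C), a 1.84-fold difference below the threshold. ACACA, which makes malonyl-CoA and commits it to synthesis, read 10.33 and 12.55 and was 4.66-fold higher. FASN, which assembles the chain, read 10.86 and 13.68 and was 7.06-fold higher. The size of the difference thus followed the order of the steps on these 2 arrays: ACACA exceeded ACLY by 1.34 and FASN exceeded ACACA by 0.60 on the log2 scale, with no error to set beside either gap.

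FASN and ACACA stood near the end of the distribution, and ACLY did not. Only 23 of the 11802 genes had a difference as high as that of FASN, itself included, and it was the highest of the 590 genes in its bin of signal. ACACA was among the top 5 of 590 in its bin, and 77 genes overall reached its difference. In the bin of ACLY 38 of 591 genes, ACLY included, had a difference as high or higher.

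**Figure D2:**
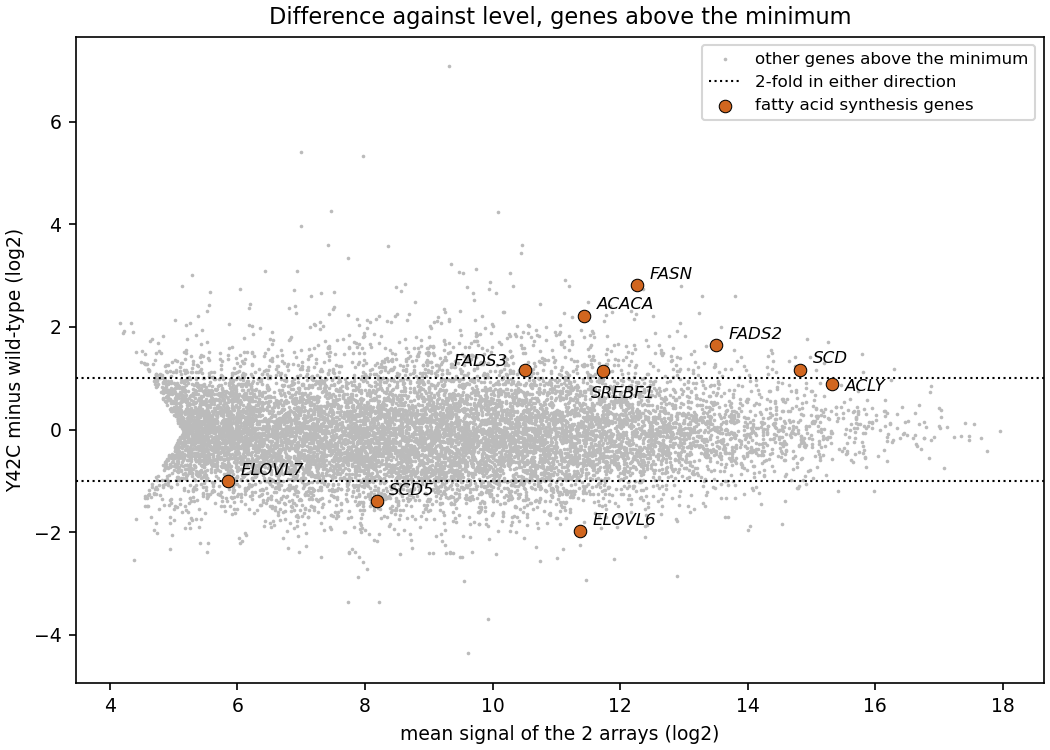
Difference between the arrays (y axis, Y42C minus wild-type, log2) against the mean signal of both arrays (x axis, log2) for the genes above the minimum (grey points) and the 10 genes of the set (orange, named); dotted lines mark 2-fold. FASN at 2.82 and ACACA at 2.22 lie at the upper edge of the grey cloud, ELOVL6 at -1.97 at its lower edge, and ACLY and ELOVL7 lie near the 2-fold lines.

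The desaturases differed in both directions. SCD, the main stearoyl-CoA desaturase, which makes oleate, read 14.24 (wild-type) and 15.41 (Y42C), 2.25-fold higher. SCD5, a second enzyme of that activity, read 8.88 and 7.49 and was 2.62-fold lower. The ratio of SCD to SCD5 signal therefore differed by 2.56 on the log2 scale between the lines, which is 5.90-fold.

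FADS2, the delta-6 desaturase that starts the synthesis of long polyunsaturated fatty acids, read 12.68 and 14.33, a 3.14-fold difference. It was among the top 9 of 590 genes in its bin of signal. FADS3, a relative in the same gene cluster that acts on sphingoid bases, read 9.92 and 11.08 and was 2.23-fold higher. FADS1 is unnamed here, and FADS6 lay below the minimum on both arrays (3.61 and 3.51).

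Both elongases were lower. ELOVL6, which lengthens palmitate to stearate and is known as an SREBP-1 target, read 12.35 on the wild-type and 10.38 on the Y42C array and was 3.92-fold lower. It was among the lowest 4 of 590 genes in its bin. SCD, the next enzyme on the product of ELOVL6, and ELOVL6 itself were 3.14 apart in their differences. ELOVL7, an elongase of long saturated chains, read 6.35 and 5.35. This is exactly 2.0-fold, close to the expression minimum, and its difference shrank to -0.94 when each array was centred on its median and to -0.78 with a constant of 16 added to the linear signal. Of the other elongases, ELOVL5, which acts on polyunsaturated chains, lay at -0.54 (14.79 and 14.25). ELOVL2 (4.63 and 4.54), ELOVL3 (3.79 and 2.99) and ELOVL4 (3.25 and 3.22) were below the minimum on both arrays, and ELOVL1 is unnamed here.

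The wider pathway was described with 7 lists of genes that supply, regulate or complete these steps. Of 69 entries 59 were named and 47 lay above the minimum. Among these 47, 10 were higher and 37 lower in the Y42C array (78.7% lower, against 54.2% of all genes above the minimum), 1 passed 2-fold upwards (2.13%, against 7.46%) and 7 downwards (14.9%, against 9.80%), and the median difference was -0.45. These lists leave out the 9 enzymes of the set, which were chosen with their differences known. With the 9 put back, 16 of 56 genes were higher and 40 lower, 6 and 10 of them past 2-fold, with a median of -0.42. All genes above the minimum had a median of -0.07.

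The list for carbon supply and carboxylation also counts HLCS and ACACB. Of 8 above the minimum 1 was higher and 7 lower (87.5% lower, against 54.2% of all genes), with a median of -0.36. Only 1 passed 2-fold downwards (12.5%, against 9.80% of all genes) and 0 upwards. MPC1, a subunit of the mitochondrial pyruvate carrier, was 2.83-fold lower (11.44 and 9.94). SLC25A1, which exports citrate, lay at -0.39. ACSS2, which makes acetyl-CoA from acetate and is another SREBP target, lay at 0.91 (8.25 and 9.16). HLCS, which attaches biotin to carboxylases, lay at -0.95, and ACACB, the isoform of ACACA that sits at mitochondria, was below the minimum (3.79 and 4.47).

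NADPH supply gave 1 higher and 5 lower genes of 6 (83.3% lower, against 54.2% of all genes), with a median of -0.43. PGD of the pentose phosphate pathway was 2.17-fold lower (11.16 and 10.04), while ME1, the cytosolic malic enzyme, was close on both arrays (10.24 and 10.37). Among 10 regulators of ACACA 3 were higher and 7 lower (70% lower, against the same 54.2%), with a median of -0.28. STK11, the kinase LKB1 that activates AMPK, was 2.50-fold higher (10.30 and 11.62), and MID1IP1, which promotes polymers of the carboxylase, was 2.89-fold lower (7.83 and 6.30). The AMPK catalytic subunit PRKAA1, part of the kinase that inhibits ACACA, lay at -0.30.

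The list for chain release and mitochondrial fatty acid synthesis also counts AASDHPPT, LIPT1, LIPT2 and LIAS. In it 9 of 9 genes were lower, against 54.2% of all genes above the minimum, with a median of -0.55. OXSM, the condensing enzyme of mitochondrial synthesis, was 2.33-fold lower (8.71 and 7.49). The other 8 differed by less than 2-fold, and NDUFAB1 differed least, at -0.14. The remaining steps of the elongation cycle had 2 higher and 3 lower genes of 5 (60% lower, near the 54.2%), with a median of -0.54. HACD2, a dehydratase of this cycle, lay at 0.87 (14.21 and 15.08) and HACD3 at -0.76 (13.03 and 12.27).

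The desaturases draw electrons through cytochrome b5. This list had 3 higher and 4 lower genes of 7 (57.1% lower, near the 54.2% of all genes), with a median of -0.26. The reductase CYB5R3 read 12.49 on the wild-type and 11.02 on the Y42C array, 2.77-fold lower, and CYB5R2 was 2.48-fold lower (11.07 and 9.76). CYB5A, the carrier itself, lay at -0.77. Of the acyl-CoA synthetases only 2 of 7 named genes were above the minimum, and both were lower: ACSL4 by 2.27-fold (9.12 and 7.94) and ACSL1 at -0.61, with a median of -0.90.

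**Figure D3:**
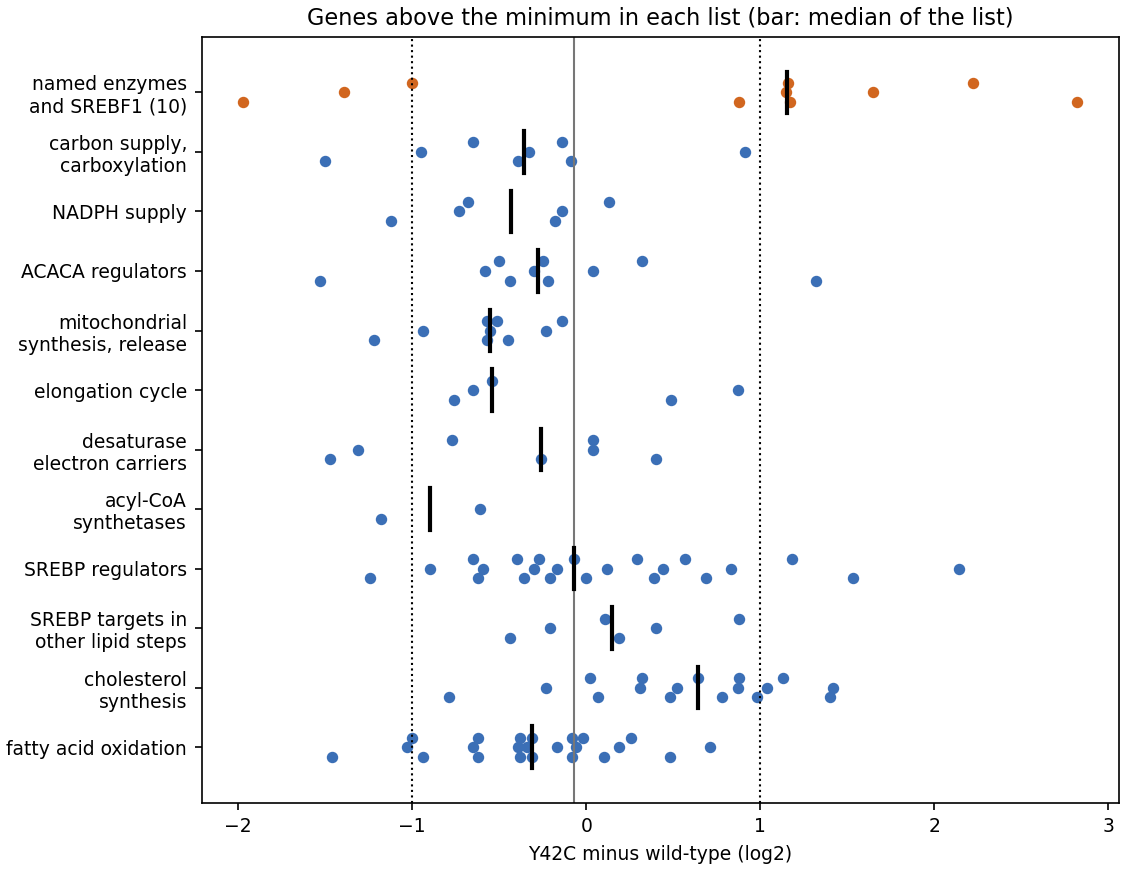
Difference between the arrays (x axis, Y42C minus wild-type, log2) of each gene above the minimum (points) in the set of 10 (orange) and in the 11 lists of related genes (blue); black bars are list medians, dotted lines mark 2-fold and the grey line is the median of all genes above the minimum, -0.07. The set splits into 7 genes above 0.8 and 3 at or below -1, the cholesterol synthesis list lies mostly above 0, and the lists of supply, mitochondrial synthesis and oxidation genes lie mostly below it.

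Regulators of SREBP as a list were near all genes in their median and in the share past 2-fold in either direction. Of 23 above the minimum 10 were higher, 12 lower and 1 equal, with a median of -0.07. Past 2-fold in either direction were 4 (17.4%, against 17.3% of all genes). By direction, 3 were at least 2-fold higher (13.0%, against 7.46% of all genes) and 1 lower (4.35%, against 9.80%). SREBF2, which encodes the partner factor SREBP-2, read 8.66 (wild-type) and 10.80 (Y42C), a 4.41-fold difference, larger than that of SREBF1 by 0.99 on the log2 scale. USF2, an E-box factor that acts on the FASN promoter, was 2.89-fold higher (11.09 and 12.62), and MBTPS1, the site-1 protease that makes the first cut in SREBP, 2.27-fold higher (9.59 and 10.77). ERLIN2, which takes part in the degradation of sterol-regulated membrane proteins, was 2.36-fold lower (9.17 and 7.93). SCAP, the escort protein of SREBP, lay at -0.59. INSIG1, which retains SCAP in the endoplasmic reticulum and is itself an SREBP target, lay at 0.39, and INSIG2 at -0.30. The liver X receptor gene NR1H3 read 7.35 on both arrays. MLXIPL, the carbohydrate-responsive factor ChREBP, was near the minimum (5.34 and 4.44), and at least 1.15-fold lower.

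In the list of further SREBP targets, mainly of glycerolipid synthesis and lipoprotein uptake, 4 of 6 genes were higher (66.7%, against 45.2% of all genes). Higher by 2-fold were 0, and the median was 0.15. NSDHL, a cholesterol synthesis enzyme that the next list counts again, lay at 0.88 and GPAM, which starts glycerolipid synthesis, at -0.44. Of 17 cholesterol synthesis genes 15 were higher (88.2%, against the same 45.2%) and 2 lower, with a median of 0.64. Past 2-fold upwards were 4 (23.5%, against 7.46% of all genes) and downwards 0, namely DHCR7 (2.68-fold), SQLE (2.64-fold), HMGCS1 (2.19-fold) and MVD (2.06-fold). Of 23 genes of fatty acid oxidation 5 were higher and 18 lower (78.3% lower, against 54.2% of all genes). Their median was -0.31, and 3 passed 2-fold downwards (13.0%, near the 9.80% of all genes). CPT1A, the malonyl-CoA-sensitive entry step, was 2.75-fold lower (8.28 and 6.82), EHHADH 2.04-fold and ACAA2 2.0-fold, and 0 were at least 2-fold higher. ACACA and CPT1A, whose products make and sense malonyl-CoA, thus differed in opposite directions on these arrays.

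The genome position of the 10 genes was set beside these values, because 4 of them (SREBF1, ACACA, ACLY and FASN) lie on chromosome 17 and all 4 were higher. The 708 genes of chromosome 17 above the minimum had a median difference of 0.02, with 8.33% past 2-fold upwards and 8.19% downwards. SCD5 and ELOVL6 lie on chromosome 4, where 428 genes had a median of -0.16, and ELOVL7 on chromosome 5, where 533 genes had a median of -0.15. On chromosome 10, which holds SCD, 449 genes had a median of -0.05, and on chromosome 11, which holds FADS2 and FADS3, 710 genes had -0.05. These medians describe whole chromosomes and not the surroundings of a gene. The part of genome position in the differences of the 10 genes was not tested.

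The nearest genes in order were compared next. Of all genes above the minimum, 7.46% passed 2-fold upwards and 9.80% downwards. Around FASN, the 20 nearest genes above the minimum had a median of -0.005 and a highest value of 1.24. Of these, 2 passed 2-fold upwards and 0 downwards, and DUS1L next to FASN read 7.83 and 7.78. Around ACACA the median was 0.20, 2 of 20 neighbours passed 2-fold upwards and 4 downwards, and the adjacent AATF lay at 1.09. Around SREBF1 1 of 20 was at least 2-fold higher, with a difference of 2.24, above that of SREBF1. Another 2 of these 20 were at least 2-fold lower. ACLY had 1 of 20 neighbours past 2-fold upwards and 1 downwards, the adjacent ODAD4 at -1.81. ODAD4 read 5.85 and 4.04, with its Y42C value below the minimum. SCD had 0 of 20 neighbours past 2-fold in either direction.

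FADS2 and FADS3 are neighbours in the FADS cluster on chromosome 11, so they share a locus and are not separate sites. FEN1 on the other side lay at -0.41 (12.72 and 12.31) and RAB3IL1 beyond FADS3 at -0.32 (9.70 and 9.38). At the lower end, TMEM150C beside SCD5 differed by -1.91 (6.14 and 4.23), with its Y42C value below the minimum. Of 20 neighbours of SCD5, 3 were as low as SCD5 or lower, against 3.68% of all genes above the minimum. The neighbours of ELOVL6 had a median of -0.42, with 3 of 20 at least 2-fold lower (against 9.80% of all genes) and 1 at least 2-fold higher. Of these 20, 0 reached the difference of ELOVL6, against 0.644% of all genes. ELOVL7 lay between DEPDC1B (-1.32) and ERCC8 (-0.86), and 3 of its 20 neighbours were as low or lower, against 9.80% of all genes.

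**Figure D4:**
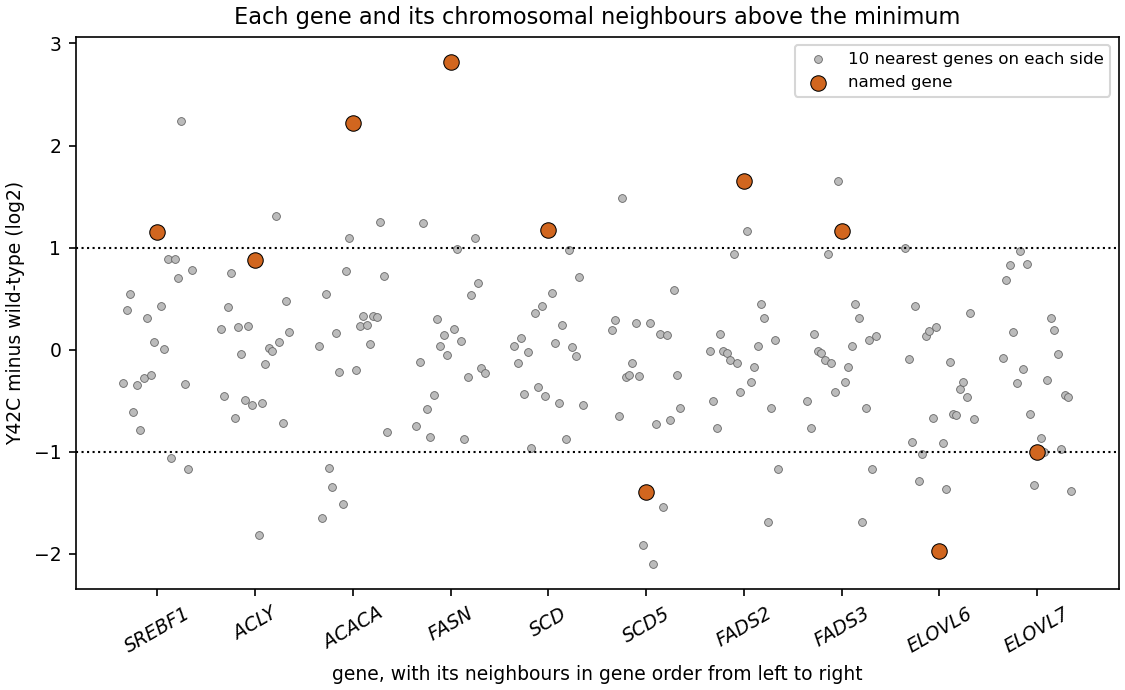
Difference between the arrays (y axis, Y42C minus wild-type, log2) of each of the 10 genes (orange) and of the 10 nearest genes above the minimum on each side (grey, left to right in gene order); dotted lines mark 2-fold. FASN, ACACA, FADS2 and SCD lie above all of their neighbours and ELOVL6 below all of its own, whereas ACLY, SREBF1, SCD5 and ELOVL7 each have at least 1 neighbour as far out, and FADS3 has FADS2.

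The promoter stretches printed above were searched further in windows of 300 bases, 250 before and 50 after the start site, on both strands. RefSeq windows matched 9 of the 10 genes, all but FASN, with 13 windows in total because ACACA, ACLY and FADS2 have several start sites. The windows of ACLY overlap by 229 bases and hold the same 2 boxes, and those of FADS2 overlap by 99 bases. CCAAT was in 8 of the 13 windows, or in 7 of 11 stretches once overlapping windows were joined, against 34.6% of all 35116 windows. By gene, 5 of the 6 higher genes held it in at least 1 window (SCD, ACLY, FADS3, FADS2 and ACACA, but not SREBF1), and 1 of the 3 lower genes (SCD5). Genes with several windows have more chances to hold a match, and FADS2 and ACACA held the box only in later windows. The 3 lower genes have 1 window each. The 34.6% is a share of windows, and no share by gene over all genes was computed. The counts by gene therefore cannot show whether the box goes with direction. The first base of the boxes in SCD lay 229 and 186 bases before the start site, and those in ACLY lay 65 and 23 bases before it.

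GGGCGG, the box of SP1, was in 11 of the 13 windows and 10 of the 11 stretches, against 45.0% of all windows. Of its 41 matches, which count those in overlapping windows once per window, 6 shared letters with another match of it, and no CCAAT match shared a letter with another motif. The share of G and C in the 13 windows ran from 45.3% to 82.3%, with a median of 58.7% over all windows. TCACNCCAC, a form of the SREBP element, was in 0 of the 13 windows and in 1.13% of all. CACGTG, the E-box, was in 0 of 13 and 7.26%, and the liver X receptor element in 0 of 13 and 0.0199%. These counts describe letters in short windows and say nothing of binding.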

How the data were processed

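The authors deposited 1 log2 signal per probe set and array (21448 probe sets, 2 arrays). Per the submitters' processing notes they used Affymetrix Expression Console; its version, background correction, summary method and normalization are not stated. The log2 scale was inferred from the values. The platform annotation gave 1 symbol for 17709 probe sets and several for 0, and 3739 are unnamed here; all 17709 were found in RefSeq (GRCh38.p14) by Entrez identifier, with 0 changes of symbol. Where a gene had several probe sets their mean was taken (20 genes, none in the set). The files name no genome build, so RefSeq served for names, gene order and promoter windows. Differences are Y42C minus wild-type, and 2-fold is a difference of 1. Where the dimmer value lay below its minimum, the fold is a bound against that minimum. There was no test, since each line has 1 array, and the small number of arrays limits precision.

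The genes of the set, the 11 lists and 6 marker lists were chosen with earlier results of these data known. Named were the 10 genes, list genes past 2-fold or, where fewer than 2 were, the extremes, and paralogs. Naming of all adjacent genes was planned, but only some of them are named. Other list genes (such as SLC25A1, SCAP, INSIG1, PRKAA1, HLCS and CYB5A) were named after their values were seen. The values of the 10 genes, their counts and median, and the counts of the other fatty acid synthesis genes, the SREBP regulators and all genes were recomputed with centred arrays, with quantile normalization, without a lowess trend on level (span 0.3), with other minimums and thresholds, with low values raised to the minimum, with a constant of 16, and with the brightest probe set. Other lists, ranks, neighbours and chromosomes were not. The 2-fold calls were tested on simulated data and the motif search on short made-up sequences, and the other steps were not tested in this way. The simulated noise was chosen and not estimated from replicates, so it checks the code and not how reliable a call is on these arrays. The tools were pandas 2.3.3 and NumPy 2.4.6 in Python 3.11.15, with statsmodels 0.14.6 for the trend and matplotlib 3.10.9 for the figures.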

Additional observations from a re-analysis of the deposited data

How the results depend on the processing

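All 10 genes kept their direction under the alternatives run. Other minimums, low values raised to the minimum and the brightest probe set could not change a gene's value. This is because each gene has 1 probe set and lay above the minimum on both arrays. With these settings counted, 85 of 89 values for single genes also kept their side of 2-fold. The other 4 belong to ELOVL7, at -0.94 with centred arrays, -0.99 with quantile normalization, -0.96 with the trend on level removed and -0.78 with a constant of 16; with the array median as minimum ELOVL7 was left out. FASN ranged from 2.81 to 2.88, ACACA from 2.21 to 2.30 and ELOVL6 from -1.97 to -1.88. At a 4-fold threshold 2 of the 10 genes were higher and 0 lower. Other fatty acid synthesis genes at least 2-fold higher numbered 2 with the trend removed; 3 were higher and 16 lower at 1.5-fold, and 0 and 0 at 4-fold. SREBP regulators numbered 5 higher and 5 lower at 1.5-fold, and 1 and 0 at 4-fold. All genes numbered 2106 higher and 2758 lower at 1.5-fold, and 118 and 69 at 4-fold. No paired analysis was possible because each line has 1 array. Signal near the minimum limits ELOVL7, and without replicates no difference can be set against the spread between cultures.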
